A study of Mus musculus with 4 samples.

Results

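The genes of the secretases that cut the amyloid precursor protein were followed across all cell classes of the brain of 5XFAD mice, with snRNA-seq. They were taken by symbol from the deposited matrices, and 9 of 32285 genes belong to them: the α-secretases Adam10 and Adam17, the β-secretases Bace1 and Bace2, and the γ-secretase subunits Psen2, Ncstn, Aph1a, Aph1b and Psenen. All mice were female 5XFAD animals, which carry mutant human amyloid precursor protein and presenilin transgenes under the neuronal Thy1 promoter, and were 7 to 10 weeks old per the labels. They were injected intravenously with engineered extracellular vesicles (EVs) that were low or high in phosphatidylethanolamine (PE), called PE-low-EV and PE-high-EV, at 6550000000 vesicles in a volume of 100 µL. Each group held 2 libraries of nuclei labelled as from the whole brain and prepared from tissue sections, and each library was pooled from 2 mice, so that a library is the replicate and the spread between single mice was not measured. No library of untreated or wild-type mice was analysed here. Among other things, the study asked whether a surplus of PE changes amyloid processing in excitatory neurons, and the levels of the secretase genes were described here in every class of nuclei as well.

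The amyloid precursor protein is cut along either of 2 paths. An α-secretase cuts within the amyloid β sequence and thereby prevents its release, whereas a β-secretase cuts at its start and leaves a membrane stub. The γ-secretase complex then cuts that stub inside the membrane and frees amyloid β. The same enzymes process many other membrane proteins, such as Notch receptors, neuregulins and, for Adam17, the cytokine TNF in immune cells.

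On the assembly GRCm38 (mm10), Adam10 lay at chr9:70678997-70780229 and was the longest of the 9 genes, at 101233 bases. Adam17 lay at chr12:21323509-21373632, Bace1 at chr9:45838580-45864399 and Bace2 at chr16:97356742-97442936. Of the γ-secretase genes, Psen2 lay at chr1:180227004-180263438, Ncstn at chr1:172066013-172082795, Aph1a at chr3:95893969-95898288, Aph1b at chr9:66775202-66795490 and Psenen at chr7:30561863-30563627. Psenen was the shortest, at 1765 bases, of which 1275 were exonic. Adam10 and Aph1b overlapped no other annotated gene. Bace1 shared 975 bases at its 3′ end with Rnf214 and Aph1a shared 521 bases at its 3′ end with Car14, in each case on the opposite strand, and Psen2 shared 7010 bases with the antisense gene Gm31728. Reads from such stretches are told apart by strand alone, and whether counting used the strand is not given in the sources used here. Bace2 shared 363 bases with the processed pseudogene Gm49681 on the same strand, where strand cannot tell reads apart.

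The catalytic sites of the 4 proteases are shown because the sites define the 2 families. The stretches, taken from the longest annotated coding sequence of each gene on GRCm38 (GENCODE transcripts), carry the codons of the active sites in capitals. These are the zinc-binding motif of the α-secretases, whose histidines hold the metal, and the first and second catalytic aspartate motifs of the β-secretases.
Adam10, residues 384 to 388 of 749: tttgctCATGAAGTTGGACATaactttgga
Adam17, residues 424 to 428 of 846: acaactCATGAATTGGGACATaattttgga
Bace1, residues 93 to 96 of 501: atcctggtgGACACGGGCAGTagtaacttt
Bace1, residues 289 to 292 of 501: agcattgtgGACAGTGGGACCaccaacctt
Bace2, residues 106 to 109 of 514: attcttgtgGACACTGGAAGCagtaacttc
Bace2, residues 299 to 302 of 514: gccattgtgGACAGTGGCACCacgctcctg

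Aph1b has a near copy in rodents, Aph1c, with which it may share reads. Their coding sequences of 771 and 774 bases were 96.2% identical over 771 aligned bases, with 29 differing bases. The first 30 coding bases are shown because no other stretch of this length, taken in frame, differed at more bases. The 6 bases that differ are in capitals.
Aph1b: atgacgGCTGcGgtgttcttTggttgcgcc
Aph1c: atgacgCTGCcTgtgttcttCggttgcgcc
Over the whole Aph1b transcript, 521 of 4821 windows of 90 bases, or 10.8%, occurred in Aph1c without a mismatch. Of the last 300 windows, at the end near which a 3′ kit reads, 0 did. Reads from the shared stretches cannot be assigned to either gene, and how many reads came from them was not measured.

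The 4 libraries held 29472021 to 43272337 unique molecular identifiers (UMIs, each a counted RNA molecule), and 46.14% to 49.92% of them lay in called nuclei. The nuclei were kept under both of 2 limits on mitochondrial UMIs. A limit of 3%, that of the study, left 10647 nuclei, of which 423 stayed unnamed and the rest fell into 6 classes. It left 2778 and 2996 nuclei in PE-low replicates 1 and 2, then 1449 and 3424 in PE-high replicates 1 and 2. PE-high replicate 1 held only 19 precursor-like and 25 oligodendrocyte-like nuclei. The study states a larger number of nuclei after its filters. The classes were excitatory, inhibitory and striatal projection neuron-like, astrocyte-like, oligodendrocyte-like and oligodendrocyte precursor-like. A limit of 15% left 35665 nuclei and added microglia-like, endothelial and pericyte-like, and neuroblast-like classes. From 22 to 43 called barcodes were shared by any pair of libraries, at most 0.403% of either.

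The class names rest on marker genes that took no part in the choice of members. The marker values below are of these same lists, so they describe the naming and are no separate check of it. No class of cerebellar granule cells was found, although the tissue is labelled as whole brain, and the 3 granule cell markers summed to a mean of at most 3.07 CPM (counts per 1000000 UMIs of the class) in any class. All 7 oligodendrocyte markers were highest in oligodendrocyte-like nuclei and all 7 astrocyte markers in astrocyte-like nuclei under both limits, and 8 of 9 microglial, 8 of 8 endothelial and 7 of 7 pericyte markers were highest in their own class at 15%. Inhibitory neuron-like nuclei were the least distinct, with 1 of 8 markers highest there at 15%, where 5 were highest in neuroblast-like nuclei (summed means of 2557.7 and 4959.6 CPM). At 3%, 3 of 8 were highest in inhibitory neuron-like and 4 in precursor-like nuclei (2332.1 and 2481.3 CPM). Of 9 excitatory neuron markers, 5 were highest in excitatory neuron-like nuclei at 3% and 6 at 15%. Their summed mean at 15% was 2312.8 CPM there and 2303.5 CPM in astrocyte-like nuclei. At 3%, precursor-like nuclei held the astrocyte markers at 4113.4 CPM beside 5246.7 CPM of their own markers. PE-low replicate 1 stood apart in vessels: of 488 nuclei in an endothelial cluster led by the interferon-induced genes Cxcl10, Rsad2, Gbp5, Iigp1 and Ifit1, 0 came from this library and 199, 145 and 144 from the others. Endothelial Cxcl10 was 2.28 CPM there against 6605.1, 5114.7 and 4689.9 CPM in the same order. Results that rest on this library are therefore given with and without it.

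The secretase genes were sparse. Their UMIs numbered 5448 over all named nuclei at 3% and 14753 at 15%, for 9 genes together. Excitatory neuron-like nuclei held 2800 of the former, from 63 of Bace2 to 1128 of Adam10. Oligodendrocyte precursor-like nuclei held 81, from 1 to 25 per gene, and at 15% the microglia-like nuclei held 630, from 2 to 253. Where a library had no UMI of a gene, 3 UMIs of the total were taken as the limit that a count of 0 allows, which covers counting error only. For Bace2 in neuroblast-like nuclei, at 0 in all 4 libraries, these limits were 22.6, 29.8, 29.9 and 55.8 CPM.

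RNA outside nuclei held some members at a far higher level than the nuclei did. In near-empty barcodes, which carry free RNA, Psenen stood at 139.9 and 136.3 CPM in PE-low replicates 1 and 2, then 143.1 and 159.5 CPM in PE-high replicates 1 and 2. In nuclei at 3% it stood at 27.7, 20.9, 28.4 and 29.0 CPM, so that it was 5.03 to 6.52 times higher outside them. The ratio was 1.9 to 2.28 for Bace1, 1.7 to 2.33 for Aph1a, 1.6 to 2.32 for Psen2 and 1.12 to 1.97 for Aph1b. The α-secretases lay below 1, at 0.725 to 0.835 for Adam10 and 0.518 to 0.606 for Adam17, while Ncstn and Bace2 had ratios on either side of 1, at 0.687 to 1.1 and 0.715 to 1.06.

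**Figure D1:**
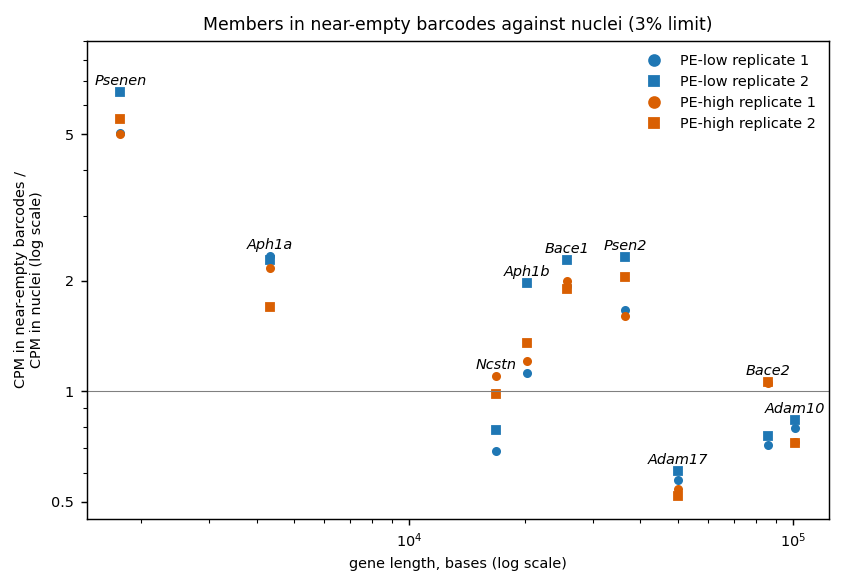
CPM of each secretase gene in near-empty barcodes divided by its CPM in nuclei at the 3% limit (log axis) against gene length in bases (log axis), with 1 point per library. Psenen, the shortest gene, lies at 5.03 to 6.52 in all 4 libraries, and Adam17 and Adam10 lie below the line at 1.

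The share of free RNA also differed between classes, as estimated from markers of other classes. At 3% its mean was 11.6% in excitatory, 15.2% in inhibitory and 14.6% in striatal neuron-like nuclei, and between 24.9% and 31.7% in the glial classes. At 15% it was 14.1% to 18.8% in these 3 neuronal classes and 35.6% to 38.8% in the other 6. Class differences are therefore given also after subtraction of the estimated free RNA. Subtraction raises the level of a gene where a class lies above the near-empty barcodes and lowers it where the class lies below. A difference that grows in this way is no separate check of the class difference.

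How each member was distributed over the classes was asked first. Classes were compared within libraries in a single fit, in pairs and against the mean of all other classes, with an adjusted p of up to 0.1 as the threshold. Over all genes and classes, 20.7% of tests against the mean were higher and 17.9% lower at 3%, and 25.4% and 23.1% at 15%. At 3%, 11 of 75 pair tests of members passed (14.7%), against 37.6% of the pair tests of all genes. They concerned Adam10, Adam17 and Bace1. Psenen and Aph1a were tested without a pass, and the other 4 members were too sparse for the fit. At 15%, 89 of 216 pair tests passed (41.2%), against 47.7% for all genes, and each of the 6 members tested had at least 1 pass. Each had 36 pairs, and the share of all genes with a pass in any pair was not computed. Bace2, Psen2 and Aph1b stayed below the count filter. At 15% no member was higher than in the other classes in excitatory, inhibitory or striatal neuron-like nuclei, where 38.3%, 34.6% and 35.4% of all genes were, and none was lower in oligodendrocyte-like nuclei, where 27.5% were.

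**Figure D2:**
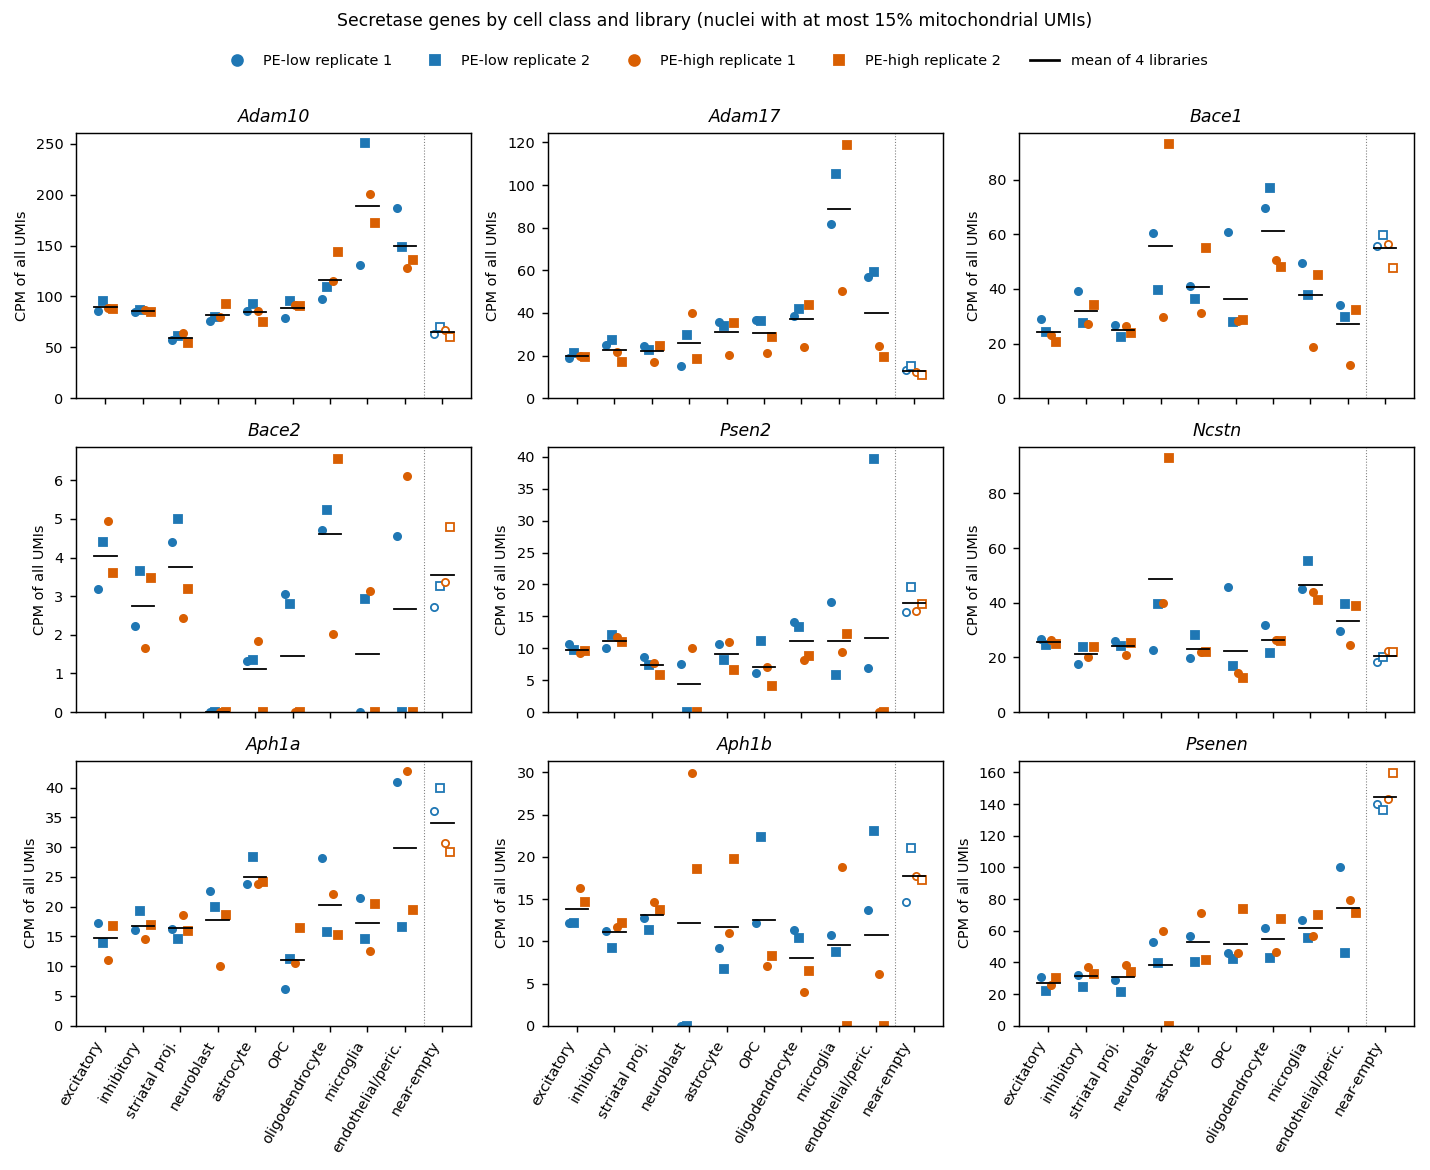
Level of each secretase gene in CPM of all UMIs (linear axes from 0) in the 9 classes at the 15% limit and in near-empty barcodes (open symbols). Each point is a library, coloured by EV group, and the bar is the mean of the 4 libraries. Adam10 and Adam17 are highest in microglia-like nuclei, Bace1 in oligodendrocyte-like nuclei, and Psenen is at 136.3 CPM or more in near-empty barcodes.

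Adam10, the main constitutive α-secretase of neurons, was highest in microglia-like nuclei, with 130.9 and 250.8 CPM in PE-low replicates 1 and 2, then 200.9 and 172.4 CPM in PE-high replicates 1 and 2. Endothelial and pericyte-like nuclei came next, at 186.6, 148.6, 128.0 and 136.2 CPM in the same order. Striatal neuron-like nuclei were lowest, at 57.2, 61.2, 63.7 and 54.7 CPM. No library of the striatal class reached the lowest library of the microglia-like or the vascular class, and these 2 classes overlapped each other.

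Against the mean of the other classes, Adam10 was higher in microglia-like nuclei by a log2 difference of 0.80 ± 0.11 (SE, adjusted p = 1.22e-08) and in endothelial and pericyte-like nuclei by 0.68 ± 0.13 (adjusted p = 9.71e-06). Of all genes, 17.7% and 24.0% were higher in these classes. It was lower than in the other classes in striatal neuron-like nuclei, with a log2 difference of −0.54 ± 0.08 (adjusted p = 1.07e-07), and in neuroblast-like nuclei, with −0.64 ± 0.23 (adjusted p = 0.0216), where 28.7% and 16.2% of all genes were lower. The astrocyte-like difference of −0.25 ± 0.11 (adjusted p = 0.0560; 24.2% of all genes lower) did not pass without any of the 4 libraries, with adjusted p between 0.115 and 0.243. Without PE-low replicate 1 the vascular value was 0.51 ± 0.17 (adjusted p = 0.0113). The median of all genes was itself shifted by −0.14 in the vascular and −0.16 in the neuroblast-like contrast, or by 0.01 and −0.09 with DESeq2 size factors.

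With free RNA subtracted, Adam10 was 1.12 ± 0.13 higher in microglia-like nuclei (log2, adjusted p = 4.57e-09) and 0.98 ± 0.15 higher in vascular nuclei (adjusted p = 9.36e-07), and the difference in oligodendrocyte-like nuclei reached 0.41 ± 0.12 (adjusted p = 0.00695) from 0.19 ± 0.10 (adjusted p = 0.104). In all, 26 of 36 pairs of classes differed at 15%. Among neighbours in the order of levels, only the step from vascular to oligodendrocyte-like nuclei (149.9 ± 25.9 against 116.4 ± 19.6 CPM, SD, n = 4 libraries) passed (adjusted p = 0.0108).

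The neurons differed among themselves under the 3% limit as well. Adam10 stood at 91.6, 93.6, 98.1 and 87.0 CPM in excitatory and at 48.6, 63.6, 72.6 and 63.2 CPM in striatal neuron-like nuclei, with no overlap, and the log2 difference was 0.59 ± 0.11 (adjusted p = 2.27e-05). Against the mean of the others the excitatory value was 0.29 ± 0.11 (adjusted p = 0.0303; 28.5% of all genes higher) and the striatal value −0.41 ± 0.13 (adjusted p = 0.00910; 21.7% lower). The excitatory call was lost at 15% (0.10 ± 0.07, adjusted p = 0.240), after subtraction of free RNA (0.25 ± 0.14, adjusted p = 0.162) and without PE-low replicate 2 (0.23 ± 0.14, adjusted p = 0.265). The striatal call was lost without PE-low replicate 1 (−0.28 ± 0.15, adjusted p = 0.161).

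Adam17, the protease that sheds TNF, showed the largest difference of a class from the others among the 6 members tested at 15%. In microglia-like nuclei it stood at 81.5 and 105.0 CPM in PE-low replicates 1 and 2, then 50.2 and 119.0 CPM in PE-high replicates 1 and 2. In excitatory neuron-like nuclei it stood at 18.7, 21.2, 19.6 and 19.4 CPM. Every microglia-like library lay above every library of the neuronal, astrocyte-like, oligodendrocyte-like, precursor-like and neuroblast-like classes, and overlapped with the vascular class alone. Near-empty barcodes held Adam17 at 12.9 ± 1.6 CPM (SD, n = 4), below the mean of every class. The 3 pan-neuronal markers summed to 1764.4 to 2947.2 CPM in the microglia-like libraries, against 5119.4 to 5605.7 CPM in excitatory neuron-like ones, and the 9 microglial markers to 2860.7 to 4024.6 CPM against 88.1 to 118.4 CPM. The part of neuronal RNA in the microglia-like values was not tested beyond the subtraction of free RNA.

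The log2 difference of Adam17 in microglia-like nuclei from the other classes was 1.38 ± 0.17 (adjusted p = 2.09e-09) and 1.75 ± 0.20 with free RNA subtracted (adjusted p = 5.2e-09). It stayed between 1.27 and 1.5 when any single library was left out. All 8 pairs of microglia-like nuclei with another class passed, from 0.80 ± 0.25 over vascular nuclei (adjusted p = 0.00733) to 1.81 ± 0.41 over neuroblast-like nuclei (adjusted p = 0.000236). Over excitatory neuron-like nuclei Adam17 was 3.23-fold higher (adjusted p = 1.82e-11). Adam17 was lower than the mean of the others in excitatory (−0.52 ± 0.12, adjusted p = 0.000276; 29.6% of all genes lower), inhibitory (−0.46 ± 0.13, adjusted p = 0.00287; 27.3%) and striatal neuron-like nuclei (−0.30 ± 0.13, adjusted p = 0.0503). The striatal call was lost without PE-low replicate 2 (adjusted p = 0.132) and without PE-high replicate 1 (adjusted p = 0.208).

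The vascular value of Adam17, 0.48 ± 0.23 (adjusted p = 0.0962), depended on single libraries. It was 0.31 ± 0.33 without PE-low replicate 1 (adjusted p = 0.514) and 0.40 ± 0.31 without PE-low replicate 2 (adjusted p = 0.333). At 3%, where no microglia-like class was left, Adam17 was lowest in excitatory neuron-like nuclei, with 17.9, 20.1, 25.1 and 19.3 CPM and a log2 difference of −0.56 ± 0.17 (adjusted p = 0.00854; 22.4% of all genes lower). That call was lost without PE-low replicate 1 (−0.42 ± 0.20, adjusted p = 0.122). The precursor-like nuclei had the highest mean there, 58.4 ± 19.1 CPM (SD, n = 4), from only 17 UMIs. There the difference from the other classes was 0.82 ± 0.41 (adjusted p = 0.124).

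Bace1, the main β-secretase of the brain, was highest in oligodendrocyte-like nuclei under both limits. At 15% it stood there at 69.6 and 76.8 CPM in PE-low replicates 1 and 2, then 50.5 and 47.9 CPM in PE-high replicates 1 and 2. Excitatory neuron-like nuclei held 29.0, 24.4, 23.1 and 20.5 CPM and striatal ones 26.8, 22.3, 26.5 and 23.9 CPM. All oligodendrocyte-like libraries lay above all libraries of the 3 neuronal classes, and they overlapped with those of astrocyte-like, precursor-like, microglia-like and neuroblast-like nuclei. The last had 20 UMIs of Bace1 and a mean of 55.8 ± 27.9 CPM (SD, n = 4).

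The oligodendrocyte-like difference of Bace1 from the other classes was 0.95 ± 0.14 on the log2 scale at 15% (adjusted p = 4.86e-08; 26.7% of all genes higher) and 1.46 ± 0.30 at 3% (adjusted p = 5.03e-05; 17.9% higher). With free RNA subtracted it was 1.49 ± 0.26 (adjusted p = 1.01e-05) and 2.04 ± 0.40 (adjusted p = 0.000103). Each of the 5 pairs with another class passed at 3%. At 15% 7 of 8 did, the exception being neuroblast-like nuclei (a difference of −0.60 ± 0.33, neuroblast-like minus oligodendrocyte-like, adjusted p = 0.146). The level of Bace1 in near-empty barcodes, 47.5 to 59.6 CPM, overlapped with the range of the oligodendrocyte-like libraries.

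At 3% the oligodendrocyte-like value rested on 41 UMIs and was uneven. It was 113.1 and 82.7 CPM in PE-low replicates 1 and 2 and 61.4 CPM in PE-high replicate 2, while PE-high replicate 1 had 0 of 29608 UMIs, which allows up to 101.3 CPM. Left out in turn, the libraries gave log2 differences of 1.31 to 1.6. Bace1 was also lower than in the other classes in excitatory (−0.36 ± 0.11, adjusted p = 0.00420) and striatal neuron-like nuclei (−0.30 ± 0.12, adjusted p = 0.0327) at 15%, but neither value passed after subtraction of free RNA (−0.33 ± 0.23, adjusted p = 0.296, and −0.37 ± 0.25, adjusted p = 0.266). The striatal call was also lost without PE-low replicate 1 (−0.22 ± 0.15, adjusted p = 0.257). The 3% values, −0.41 ± 0.17 (adjusted p = 0.0620) and −0.52 ± 0.20 (adjusted p = 0.0363), each missed the threshold without PE-low replicate 1, PE-high replicate 1 or PE-high replicate 2, with adjusted p from 0.102 to 0.276 and from 0.104 to 0.159.

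Bace2, a related protease that cuts within the amyloid β sequence, was close to the limit of detection. It stood at 3.19, 4.41, 4.95 and 3.61 CPM in excitatory and at 4.70, 5.22, 2.02 and 6.54 CPM in oligodendrocyte-like nuclei at 15%. Its order over classes is a description only, with 100 and 16 UMIs in these classes and 3 or fewer in astrocyte-like, vascular, microglia-like, precursor-like and neuroblast-like nuclei. At this depth no difference between classes could be shown.

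Psen2, a catalytic subunit of γ-secretase, was best sampled in the 3 neuronal classes. At 15% it stood at 10.6, 9.71, 9.23 and 9.52 CPM in excitatory, at 10.1, 12.1, 11.7 and 10.9 CPM in inhibitory and at 8.59, 7.32, 7.62 and 5.73 CPM in striatal neuron-like nuclei. The striatal libraries lay below all others of these 3 classes, but Psen2 stayed below the count filter of the joint fit, so this was not tested there. Its highest class mean, 11.6 ± 19.0 CPM (SD, n = 4) in vascular nuclei, came from PE-low replicate 2 at 39.6 CPM with both PE-high libraries at 0.

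Ncstn encodes nicastrin, the subunit that receives substrates. In microglia-like nuclei it stood at 45.1 and 55.4 CPM in PE-low replicates 1 and 2, then 43.9 and 41.0 CPM in PE-high replicates 1 and 2, above every library of the excitatory (24.5 to 26.7 CPM), inhibitory (17.6 to 23.9 CPM) and striatal neuron-like class (21.0 to 26.0 CPM). The log2 difference from the other classes was 0.59 ± 0.21 (adjusted p = 0.0177) and 0.88 ± 0.28 with free RNA subtracted (adjusted p = 0.0111). It was 0.55 to 0.7 with a library left out. Neuroblast-like nuclei had the highest mean, 48.8 ± 30.6 CPM (SD, n = 4), on 16 UMIs, and their difference of 0.32 ± 0.38 did not pass (adjusted p = 0.553).

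In inhibitory neuron-like nuclei Ncstn was lower than in the other classes, by −0.36 ± 0.13 on the log2 scale (adjusted p = 0.0189). That call was lost without PE-low replicate 1 (−0.25 ± 0.14, adjusted p = 0.160). The precursor-like value of 22.2 ± 15.8 CPM (SD, n = 4) was carried by PE-low replicate 1 at 45.8 CPM, with the others between 12.3 and 16.8 CPM.

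Aph1a and Aph1b are alternative scaffold subunits of the complex. Aph1a stood at 23.8, 28.3, 23.8 and 24.2 CPM in astrocyte-like nuclei at 15%, against 14.7 ± 2.85 CPM (SD, n = 4) in excitatory neuron-like nuclei, where the highest library had 17.2 CPM and the groups did not overlap. Its log2 difference from the other classes was 0.50 ± 0.21 in astrocyte-like (adjusted p = 0.0478; 25.4% of all genes higher), 0.74 ± 0.28 in vascular (adjusted p = 0.0264) and −0.86 ± 0.36 in precursor-like nuclei (adjusted p = 0.0475; 10.3% lower). All of these calls depended on single libraries. The astrocyte-like call was lost without PE-low replicate 2 (0.39 ± 0.26, adjusted p = 0.264) or PE-high replicate 1 (0.48 ± 0.23, adjusted p = 0.103), the vascular call without PE-low replicate 1 (0.54 ± 0.41, adjusted p = 0.334) or PE-high replicate 1 (0.59 ± 0.31, adjusted p = 0.138), and the precursor-like call without PE-low replicate 1 (−0.54 ± 0.42, adjusted p = 0.352). With free RNA subtracted Aph1a fell below the count filter and was not tested.

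Aph1b stood at 12.2, 12.2, 16.3 and 14.6 CPM in excitatory, 11.2, 9.19, 11.7 and 12.2 CPM in inhibitory and 12.8, 11.3, 14.6 and 13.7 CPM in striatal neuron-like nuclei at 15%. The libraries of these classes overlapped. In the other classes its means ranged from 8.07 ± 3.39 CPM (oligodendrocyte-like, SD, n = 4) to 12.5 ± 6.99 CPM (precursor-like), and it was not tested between classes.

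Psenen encodes the subunit that completes the γ-secretase complex. At 15% it was lowest in neurons, with 30.8, 21.7, 25.9 and 29.9 CPM in excitatory neuron-like nuclei, and highest in vascular nuclei, with 100.1, 46.2, 79.3 and 71.4 CPM. Every vascular library lay above every excitatory one. Against the other classes, the vascular log2 difference was 0.78 ± 0.18 (adjusted p = 0.000395) and the excitatory, inhibitory and striatal ones were −0.57 ± 0.10 (adjusted p = 2.67e-06), −0.51 ± 0.11 (adjusted p = 0.000109) and −0.37 ± 0.10 (adjusted p = 0.00304). Without PE-low replicate 1 the vascular difference was 0.61 ± 0.27 (adjusted p = 0.0685).

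The CPM of Psenen correlated with the share of free RNA at 15%, with a Pearson r of 0.64 over the 36 sums of class and library, which share libraries and depth, whereas r was 0.43 for Adam10, 0.40 for Adam17 and 0.39 for Bace1. At 3%, over 24 sums, r was 0.05 for Psenen, 0.66 for Adam17, −0.59 for Ncstn, 0.27 for Bace1 and 0.08 for Adam10, so that the order of the members changed with the limit. All classes lay below the near-empty barcodes, at 144.7 ± 10.2 CPM (SD, n = 4). After subtraction of free RNA too few UMIs of Psenen were left for a test. At 3% the free-RNA share was lower, but the vascular, microglia-like and neuroblast-like classes were absent, so the other classes were fewer. Simulated log2 differences of 1 in oligodendrocyte-like nuclei were recovered at 54% at 3% and at 87.4% at 15%. In PE-high replicate 1 this class held no UMI of Psenen at 3%. Psenen did not pass in any class at 3%, and the oligodendrocyte-like value was −0.78 ± 0.44 (adjusted p = 0.184) as against 0.31 ± 0.13 at 15% (adjusted p = 0.0582). The latter was lost without PE-low replicate 1, PE-low replicate 2 or PE-high replicate 2, with adjusted p from 0.116 to 0.192. The part of free RNA in the class differences of Psenen was not tested further.

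**Figure D3:**
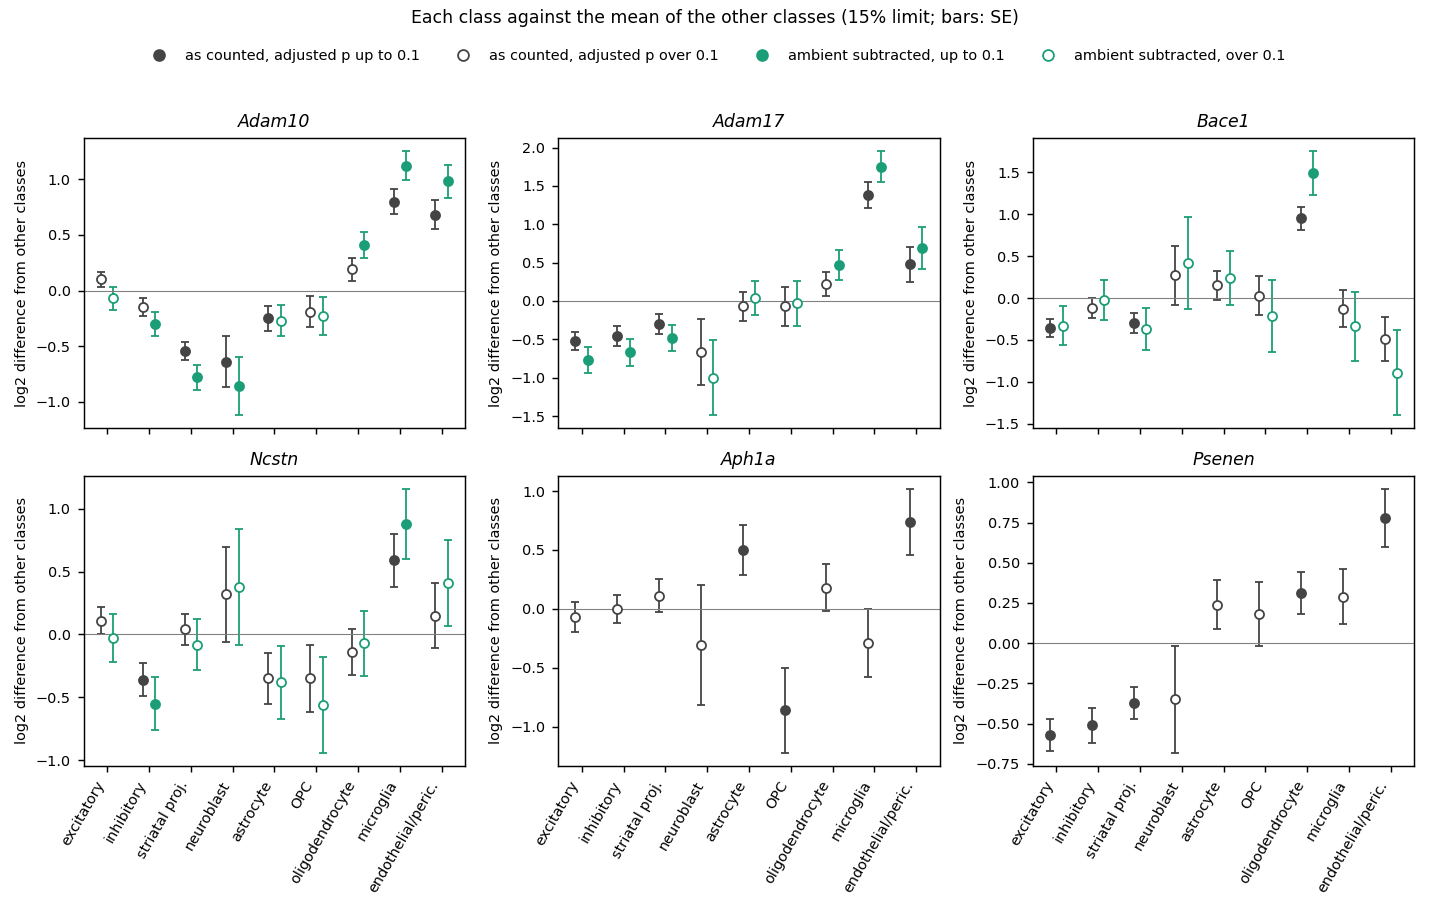
Log2 difference of each class from the mean of the other classes at the 15% limit for the 6 members tested, as counted (dark) and with free RNA subtracted (green), with SE bars. Filled symbols have an adjusted p of up to 0.1. Adam17 and Adam10 in microglia-like and Bace1 in oligodendrocyte-like nuclei are further from 0 after subtraction, and Aph1a and Psenen have no green symbols because they fell below the count filter.

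Whether PE-high-EV changed the members was asked next, in each class separately with 2 libraries against 2. No member changed by the test of edgeR. At 3%, 0 of 26 tests passed, with an adjusted p of at least 0.988, and 0 had an unadjusted p below 0.05. DESeq2 also called 0. Of all genes, 4 of 41412 tests passed (0.00966%, with 0.0076% in excitatory, 0.0185% in striatal neuron-like and 0.0688% in precursor-like nuclei), and 4.57% had an unadjusted p below 0.05. At 15%, 0 of 50 tests passed (all genes 0.00383%, with 0.0138% in excitatory neuron-like and 0.0107% in oligodendrocyte-like nuclei), 3 had an unadjusted p below 0.05 (all genes 4.69%), and DESeq2 called 0. Neuroblast-like nuclei had no member above the count filter, and precursor-like nuclei had none at 3%.

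In excitatory neuron-like nuclei, where all 9 members were tested at 3%, 6 values were positive and 3 negative, with a median of 0.08 on the log2 scale. Bace1 stood at 26.2 and 23.3 CPM with PE-low-EV and at 28.1 and 21.4 CPM with PE-high-EV, and its log2 change was −0.01 ± 0.21 (SE). Adam10 stood at 91.6 and 93.6 CPM against 98.1 and 87.0 CPM, a change of 0.03 ± 0.13. For both, the PE-low-EV libraries lay between the PE-high-EV ones.

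Ncstn had 26.8 and 27.9 CPM with PE-low-EV against 22.1 and 23.7 CPM with PE-high-EV, with no overlap, and a change of −0.21 ± 0.19 (adjusted p = 0.999). At 15% the groups overlapped, and the change was 0.04 ± 0.14. The remaining changes in excitatory neuron-like nuclei at 3% were 0.22 ± 0.23 for Adam17, 0.11 ± 0.40 for Bace2, 0.23 ± 0.31 for Psen2, −0.04 ± 0.26 for Aph1a, 0.08 ± 0.27 for Aph1b and 0.26 ± 0.21 for Psenen. Differences of this size could not be told from 0 with 2 libraries in a group.

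Psenen had the smallest p of any member at 15%. In striatal neuron-like nuclei it stood at 29.1 and 21.3 CPM in PE-low replicates 1 and 2, then 38.1 and 33.7 CPM in PE-high replicates 1 and 2, with no overlap. The log2 change was 0.47 ± 0.19 with an unadjusted p = 0.0259 and an adjusted p = 0.999 (edgeR quasi-likelihood test). Without PE-low replicate 1 it was 0.69 ± 0.22 with an adjusted p = 0.0429 (edgeR), in a fit that left 1 PE-low library, assumed to vary like the PE-high pair, and called 6.06% of all genes. In inhibitory neuron-like nuclei the change was 0.37 ± 0.19, in excitatory ones 0.11 ± 0.17, and at 3% the 3 neuronal values were 0.42 ± 0.27 (striatal), 0.34 ± 0.30 and 0.26 ± 0.21. Psenen in near-empty barcodes was 139.9 and 136.3 CPM with PE-low-EV and 143.1 and 159.5 CPM with PE-high-EV, also without overlap. The part of free RNA in the change of Psenen was not tested.

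The other values with an unadjusted p below 0.05 were negative. Bace1 in oligodendrocyte-like nuclei at 15%, with 69.6 and 76.8 CPM against 50.5 and 47.9 CPM, changed by −0.55 ± 0.25 (unadjusted p = 0.0418, adjusted p = 0.984, edgeR). Adam17 in vascular nuclei had 56.9 and 59.4 CPM with PE-low-EV and 24.4 and 19.5 CPM with PE-high-EV, a change of −1.33 ± 0.47 (unadjusted p = 0.0301, adjusted p = 0.999, edgeR) on 50 UMIs. The groups did not overlap in either case. The Adam17 value was −1.49 and −1.16 without PE-high replicate 1 or 2, and Adam17 fell below the count filter without either PE-low library. In microglia-like nuclei, where Adam17 was highest, its change was −0.12 ± 0.36.

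**Figure D4:**
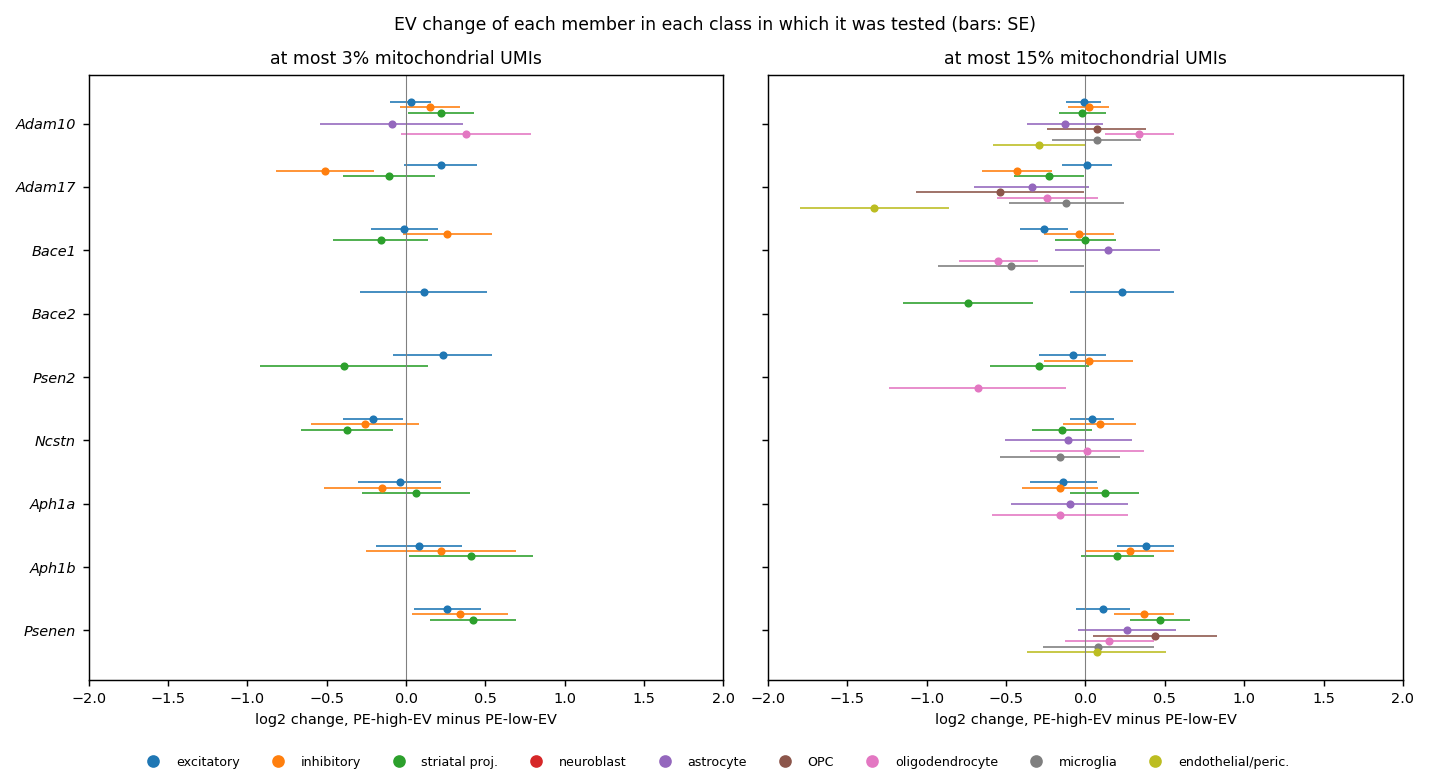
Log2 change of each member from PE-low-EV to PE-high-EV in each class in which it passed the count filter, at the 3% limit (left) and the 15% limit (right), with SE bars and a line at 0. The neuroblast-like class has no point. No value passed the adjusted threshold, and the value furthest from 0 is Adam17 in vascular nuclei at −1.33.

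Whether the change differed between classes was tested as an interaction with excitatory neuron-like nuclei. Of the members, 0 of 25 tests passed at 3% (all genes 0.0%, with 4.49% at an unadjusted p below 0.05) and 0 of 48 at 15% (all genes 0.00349%). The smallest p was that of Adam17 in astrocyte-like nuclei at 3%, a log2 difference of −2.1 ± 0.79 (unadjusted p = 0.0102, adjusted p = 1.0, edgeR), from 51.4 and 43.7 CPM with PE-low-EV and 13.1 and 12.2 CPM with PE-high-EV on 26 UMIs. At 15% the astrocyte-like libraries of Adam17 were 35.7, 33.7, 20.1 and 35.2 CPM and overlapped.

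The genes that regulate the secretases or are cut by them were described from 5 lists. With PE-high-EV, 0 genes of any list passed in any class at either limit (edgeR). Between classes many did, as did many genes at large. Of 13 relatives and modulators of γ-secretase, 9 were tested at 3%, and 5 were lower and 0 higher in excitatory neuron-like nuclei, where 22.4% of all genes were lower and 28.5% higher. In vascular nuclei at 15%, 6 of 11 were higher and 2 lower, against 24.0% and 26.4% of all genes. Gsap, named for activating γ-secretase, was higher in astrocyte-like nuclei by 3.33 ± 0.32 on the log2 scale at 3% (adjusted p = 8.35e-14) and by 2.93 ± 0.16 at 15% (adjusted p = 2.43e-22). Bsg, a glycoprotein of the blood-brain barrier, was higher in vascular nuclei by 3.97 ± 0.06 (adjusted p = 5.03e-45). Ifitm3, an interferon-induced protein that binds γ-secretase, was higher there by 7.53 ± 0.15 (adjusted p = 4.67e-41), with 282.2 CPM in PE-low replicate 1 against 1651.3, 1420.4 and 1200.1 CPM in the other libraries.

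Of 19 genes of ADAM maturation, trafficking and inhibition, 11 were tested at 3%, and 4 were higher and 3 lower in oligodendrocyte-like nuclei, against 17.9% and 22.2% of all genes. At 15%, 14 were tested and 7 were higher and 4 lower there, against 26.7% and 27.5% of all genes. Tspan15, a tetraspanin that carries Adam10 to the cell surface, was higher in that class by 4.23 ± 0.35 (adjusted p = 4.55e-16), with 105.0, 71.4, 168.9 and 159.5 CPM at 3%. Tspan5, another tetraspanin partner of Adam10, was higher in excitatory neuron-like nuclei by 1.36 ± 0.10 (adjusted p = 6.18e-18). Timp3, an inhibitor of Adam10 and Adam17, was higher in vascular nuclei by 2.76 ± 0.12 (adjusted p = 5.71e-26).

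Of 18 genes of BACE1 sorting and turnover, 17 were tested under both limits. In oligodendrocyte-like nuclei, 3 were higher and 3 lower at 3%, near the 17.9% and 22.2% of all genes. At 15%, 7 were higher and 3 lower, against 26.7% and 27.5% of all genes. Bin1, an endocytic adaptor, stood at 775.6, 661.8, 641.7 and 822.2 CPM in that class at 3%, a log2 difference of 3.09 ± 0.13 (adjusted p = 8.62e-30). Rtn4, a reticulon that restrains BACE1, was higher there by 1.61 ± 0.12 (adjusted p = 1.03e-17). Sorl1, a sorting receptor of the amyloid precursor protein, was higher in excitatory neuron-like nuclei by 0.99 ± 0.10 (adjusted p = 8.71e-13), and Picalm, a clathrin adaptor, in microglia-like nuclei by 2.47 ± 0.11 at 15% (adjusted p = 5.63e-26).

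Of 23 substrates, 20 were tested at 3%, and 8 were higher and 8 lower in excitatory neuron-like nuclei, against 28.5% and 22.4% of all genes. Mertk, a receptor for engulfment that ADAM proteases shed, was higher in astrocyte-like nuclei by 6.4 ± 0.13 (adjusted p = 9.94e-47). Erbb4, a neuregulin receptor, was lower in excitatory neuron-like nuclei by −4.68 ± 0.21 (adjusted p = 7.78e-29), and Sez6, a substrate of BACE1, was higher in striatal ones by 2.19 ± 0.13 (adjusted p = 1.4e-22). Of 9 genes listed under amyloid β degradation, a grouping chosen here that does not settle the role of each protease, 8 were tested. Mme, which encodes neprilysin, was higher in striatal neuron-like nuclei by 3.27 ± 0.18 at 3% (adjusted p = 1.29e-24), and the lysosomal proteases Lgmn and Ctsd were higher in microglia-like nuclei at 15%, by 3.05 ± 0.12 (adjusted p = 1.3e-27) and 2.25 ± 0.11 (adjusted p = 1.34e-24).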

How the data were processed

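snRNA-seq was made with a 10x Genomics 3′ v3.1 kit. Per the labels, the authors counted UMIs with Cell Ranger 7.1.0 on mm10, and deposited raw counts per gene and barcode without filtering or normalization. The deposited gene and barcode lists hold names only. Whether intronic reads were counted is not given in the sources used here. Some genes are not reported here.

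Nuclei were called from the knee and by a test against the ambient profile (at least 500 UMIs, FDR 0.01), and those with 200 to 2500 genes and up to 3% of UMIs from mitochondrial genes were kept, as in the study. A limit of 15% was used beside it. They were clustered without the members (2000 variable genes, 30 components, Leiden resolution 1.5, scanpy 1.11.5) and named from markers. Thresholds for naming were set once clusters had been looked at, and 3.97% of nuclei at 3% and 4.58% at 15% stayed unnamed. No doublets were removed, and an alternative left out the 5% with the highest Scrublet scores.

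UMIs were summed per class and library and divided by all UMIs of the sum (CPM, counts per 1000000). The sums were tested with edgeR 4.0.16 (R 4.3.3) by its quasi-likelihood test after filterByExpr and TMM, with Benjamini-Hochberg adjustment over all genes tested and a threshold of 0.1. EV groups were compared within a class, classes in 1 fit with library as a block. The steps were tested on simulated data with log2 changes of 1. At 3%, the EV comparison recovered 66.7% of them in excitatory, 57.2% in striatal and 50% in inhibitory neuron-like nuclei. It recovered 15.8% in astrocyte-like, 19.7% in precursor-like and 1.65% in oligodendrocyte-like nuclei, where most changes of this size would be missed. Free RNA was estimated from barcodes ranked 45000 to 90000 and from markers of other classes. Alternatives were DESeq2 1.42.0, its size factors, no count filter, an adjusted p of 0.05, mitochondrial limits of 5% and 15%, no upper gene limit, nuclei assigned by marker UMIs, subtraction of free RNA, each library left out, and the replicate number as a block. Alternatives combined with the 15% limit were chosen after seeing the data.

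All 9 members were named in every class. Likeness was a Pearson correlation of log2(CPM + 1) over class and library among genes with a mean of at least 20 CPM, from which the 3 highest were taken. Of each pathway list, at most the 3 genes with the smallest p were named. The members and lists were chosen with earlier results of these data known. The p-values of the EV comparison within a class measure the spread between libraries, each a pool of 2 mice. Those of the class comparisons and the interaction measure the spread left between sums of class and library once library is fitted as a block. In sums of nuclei, fewer nuclei of a subtype and less RNA per nucleus cannot be told apart.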

Additional observations from a re-analysis of the deposited data

How the results depend on the processing

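For the EV comparison at 3%, 0 members passed in every alternative, which included DESeq2, no count filter, the replicate block (0) and each library left out (0 to 0). At 15% the count was 0 to 1 with a library left out, the 1 being Psenen in striatal neuron-like nuclei without PE-low replicate 1, and 0 in the other alternatives. The interaction gave 0 members (0 to 0 with a library left out) and could not be computed with nuclei assigned by marker UMIs alone, which left no excitatory class.

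The number of members that differed between classes was 3 of 5 tested at 3%, 6 of 6 at 15% and 5 at a 5% limit. With nuclei assigned by marker UMIs alone it was 1, where nuclei were fewer and Adam10 was the only member tested. With a library left out the number was 2 to 4 at 3% and 6 to 7 at 15%. The share of all genes with a pass in any pair was not computed. Of all pair tests, 37.6% passed at 3% and 47.7% at 15%. The highest class of a member was that of the 3% limit for 3 of 9 members at 15%, for 5 with nuclei assigned by marker UMIs and for 6 with free RNA subtracted, among the classes shared. The cause was not tested.

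In excitatory neuron-like nuclei, same-numbered replicates did not deviate together from their group means (correlation 0.05 over 13160 genes). Other classes were not examined in this way. Called nuclei over the study's mitochondrial limit were 8018 of 10865 in PE-low and 9208 of 10668 in PE-high replicate 1. In replicate 2 they were 5191 of 8482 and 5977 of 9410. Whether the replicate number marks a shared batch or handling was not tested. With the replicate number as a block, Bace1 in excitatory neuron-like nuclei changed by 0.02 instead of −0.01, and no call changed.

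Other EV changes in these nuclei that turned sign were those of Adam10 (−0.01 at 15%), Bace1 (0.01 with DESeq2, 0.02 without the upper gene limit, 0.03 with free RNA subtracted), Psen2 (−0.08 at 15%), Aph1b (−0.01 without the upper gene limit) and Ncstn (0.04 at 15%). With a library left out, the ranges were −0.06 to 0.13 (Adam10), −0.18 to 0.23 (Bace1), −0.21 to 0.33 (Bace2), −0.01 to 0.52 (Psen2), −0.46 to 0.15 (Aph1a) and −0.16 to 0.32 (Aph1b). Of the recomputed class values of called members, 59 kept their call at 3% and 20 lost it, against 147 and 29 at 15%, and none turned sign.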

Other observations

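Genes with the most similar pattern to each member were sought over the 36 sums of class and library at 15%, among 8082 genes. The sums share libraries and depth, and the values are descriptions. Psenen ran closest to Ndufv1, a subunit of mitochondrial complex I (Pearson r = 0.95), Eif3c, a translation initiation factor (0.95), and Rraga, a lysosomal GTPase (0.93). Psenen had no UMI in neuroblast-like nuclei of PE-high replicate 2. Such a sum can weigh heavily on r, and r without it was not computed. Ncstn ran closest to Grn, which encodes progranulin (0.79). Adam10 ran closest to Heatr5a, Fcho2, an endocytic protein, and Rrbp1 (0.86, 0.85 and 0.85), and Adam17 to Epb41l2 (0.83), Picalm (0.80) and Heatr5a (0.79). Bace1 ran closest to Stmn4, a stathmin (0.78), Traf6 (0.78) and Syt11 (0.77). For Bace2, Psen2, Aph1a and Aph1b no gene went above 0.72 at 15%. The closest genes depended on the mitochondrial limit. At 3%, over 24 sums, none of the 3 closest genes of any member was among its 3 closest at 15%. The closest there were Yeats2 for Adam10 (0.98), Tm2d1 for Adam17 (0.79), Cul9 for Psenen (0.97), Napa for Ncstn (0.95), Ppil4 for Bace2 (0.74), Tmed8 for Psen2 (0.82), Ldha for Aph1a (0.87) and Chka for Aph1b (0.83). Over the 20 sums without the sparse precursor-like nuclei, r was 0.86 for Yeats2, 0.58 for Tm2d1, 0.6 for Tmed8 and 0.66 for Ldha. It was 0.96 for Cul9, 0.91 for Napa, 0.8 for Ppil4 and 0.84 for Chka. These sums still included oligodendrocyte-like nuclei of PE-high replicate 1, where Psenen had no UMI, and r without that sum was not computed.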
